A study of Homo sapiens with 18 samples.

Results

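Small nucleolar RNA (snoRNA) host genes are genes whose introns carry snoRNA genes. The genes described here were every gene whose symbol is SNHG followed by a number, together with GAS5, ZFAS1, DANCR, EPB41L4A-AS1 and TAF1D, which gave 34 gene identifiers of the 58336 rows of the count table. Of these, 30 matched by their GENCODE 29 symbol and 4 by a later symbol: SNHG29 (LRRC75A-AS1 in GENCODE 29), SNHG30 (LINC02001), SNHG31 (AC016708.1) and SNHG32 (C6orf48). A filter on low counts left 30 of the 34, among 19393 genes tested, and 26 had a mean of at least 1 CPM (reads of a gene scaled to a common library size) over all libraries. SNHG18, SNHG27 and the long non-coding row named SNHG28 had 0 reads in all 18 libraries. SNHG22 had 56 reads in all and was not tested.

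The libraries came from HEK293A, an adherent derivative of the human embryonic kidney line HEK293. Cells were wild type or carried a double knockout of LATS1 and LATS2, the kinases at the end of the Hippo cascade that phosphorylate YAP and TAZ. Each genotype received water, 250 µM ZnCl2 or 50 µM CdCl2 for 4 h, with 3 replicate libraries in each of the 6 groups. All groups share the cell line, the TRIzol extraction and a stranded mRNA library kit, and water was the control of each genotype. The labels do not say whether the knockout line is a single clone, so the knockout and the history of that line cannot be told apart. The design calls the replicates biological without saying that they were separate cultures, so a p-value here speaks only to the variation among the libraries made.

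Most human snoRNAs are cut from the introns of spliced transcripts after debranching, and the box C/D and H/ACA classes then guide 2′-O-methylation and pseudouridylation of ribosomal RNA. The spliced exons of the SNHG genes mostly lack a long reading frame. Many are exported, engaged by ribosomes and degraded by nonsense-mediated decay, so the level of a host's spliced RNA and that of its snoRNAs are set at different steps. Several hosts start with a 5′ terminal oligopyrimidine (TOP) tract, a C followed by a run of pyrimidines, which they share with the mRNAs of ribosomal proteins. TAF1D encodes a protein, a subunit of the SL1 factor of RNA polymerase I. GENCODE 29 also types SNHG32 (as C6orf48) and the tested SNHG28 row as protein-coding.

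The starts of 7 non-coding members are shown because they bear on that TOP feature and because their RNAs moved in different directions below. Each window runs from 15 bases before to 25 bases from the annotated RefSeq start (GRCh38.p14), and capitals mark an unbroken pyrimidine tract that begins with C at the start itself.
SNHG5: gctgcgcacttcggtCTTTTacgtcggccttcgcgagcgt
SNHG4: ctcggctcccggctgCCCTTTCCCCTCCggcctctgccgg
ZFAS1: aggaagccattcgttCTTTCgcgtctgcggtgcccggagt
SNHG12: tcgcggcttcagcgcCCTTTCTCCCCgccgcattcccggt
SNHG19: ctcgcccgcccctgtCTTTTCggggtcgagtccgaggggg
SNHG17: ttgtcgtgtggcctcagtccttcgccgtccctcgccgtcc
SNHG3: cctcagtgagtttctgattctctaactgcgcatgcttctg
The windows lie at chr6:85678709-85678748 on the minus strand for SNHG5, chr5:139274086-139274125 on the plus strand for SNHG4, chr20:49278627-49278666 on the plus strand for ZFAS1, chr1:28581849-28581888 on the minus strand for SNHG12 and chr16:2155334-2155373 on the minus strand for SNHG19. Those of the other pair lie at chr20:38435304-38435343 on the minus strand for SNHG17 and chr1:28505928-28505967 on the plus strand for SNHG3. A C followed by at least 4 pyrimidines (C or T) at the start, read on the gene's own strand, was present in 8 of 29 members with a promoter entry (27.6%), against 1429 of 35116 promoters in the table (4.07%). Of the 23 such members with at least 1 CPM, the 7 with this start were SNHG5, TAF1D, SNHG32, SNHG4, ZFAS1, SNHG12 and SNHG19. The same start was found in 12 of 19 ribosomal protein genes that hold a snoRNA (63.2%) and in 9 of 11 other TOP mRNAs of translation (81.8%). These are letters at an annotated start and not mapped cap sites. The RefSeq window of GAS5 (chr1:173869021-173869060, minus strand) lies outside its GENCODE 29 gene, whose highest coordinate is 173868882. The SNHG3 window shown above also lies outside its GENCODE 29 gene, whose lowest coordinate is 28505980. GAS5 and SNHG3 were read there as lacking this start, which is therefore uncertain for each. The windows of SNHG14 and SNHG27 lie outside their GENCODE 29 genes too. SNHG15, SNHG6, SNHG9 and SNHG25 are not covered by the table.

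Libraries held 25478614 to 37148046 reads counted in genes, and the median biological coefficient of variation was 3.93%. LATS1 fell from 79.1 ± 2.47 to 45.2 ± 1.10 CPM (SD, n = 3) between wild type and knockout in water, while LATS2 stood at 16.4 ± 0.15 and 18.6 ± 0.33 CPM. Counts per gene do not show edited bases, so these values do not test the knockout. All 9 HEK293 lineage markers were detected, with a summed level of 1364 to 1381 CPM in wild type and 3353 to 3398 CPM in knockout in water, where 6 of the 9 were higher and 2 lower. KRT8 rose from 292 to 1640.3 CPM, VIM fell from 333 to 176 and LIN28B from 120.2 to 93.3. The 13 markers of other cell types summed to 8.81 to 11.2 CPM in wild type and 34.3 to 40.4 CPM in knockout in water, mostly COL1A1, and 3 of them (PTPRC, CD3E and DCN) were at 0 counts in wild type in water. Their part in the results below was not tested. Replicate 3 of wild type in zinc stood apart from its group: its chi-square over genes, divided by the degrees of freedom, was 4.96 and 5.04 against replicates 1 and 2, which gave 1.88 against each other. Several of the zinc results in wild type below are given with and without it.

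Per kilobase of exon, the hosts formed a broad range of levels. SNHG29, which carries SNORD49A, SNORD49B and SNORD65, averaged 46.6 CPM per kilobase over the 18 libraries. GAS5, a host of box C/D snoRNAs whose RNA is also known as a decoy of the glucocorticoid receptor, averaged 46.5, and SNHG1, another box C/D host, 45.6. These 3 differed by no more than 1 CPM per kilobase, but the order rests on how strands were counted: sense reads alone gave 62.1 CPM per kilobase for SNHG29, 47.5 for GAS5 and 44.1 for SNHG1. SNHG32 (42.7), SNHG5 (40.8) and SNHG15 (38.9) followed. SNHG19 averaged 14.1, SNHG3 7.90, SNHG4 5.42 and SNHG12 4.03 CPM per kilobase. The members held 152 snoRNA genes annotated in GENCODE 29, 84 of them in SNHG14 alone. That annotation places none in GAS5, where RefSeq has 11, and enters some snoRNAs, such as SNORA16A, under different identifiers. All values below are CPM of one gene across groups, which compare groups and not genes.

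Most hosts were lower in knockout than in wild-type cells in water. Of 30 members tested, 24 were called lower and none higher, where 62.9% of all genes tested were called, 32.1% lower and 30.8% higher (edgeR quasi-likelihood test, adjusted p under 0.05). The median member changed by -0.46 on the log2 scale, against -0.02 for all genes. At an unadjusted p under 0.05, edgeR had 2 members higher, and DESeq2 called 1 higher and 22 lower. Fewer cells of a type and less RNA per cell cannot be told apart in bulk RNA.

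SNHG4, the host of SNORA74, fell furthest among members with at least 1 CPM. It stood at 45.8, 46.7 and 45.2 CPM in the wild-type water libraries and at 20.4, 20.1 and 20.9 in knockout. The groups did not overlap, and the log2 fold change was -1.16 ± 0.07 (adjusted p = 4.49e-17). DANCR, which carries SNORA26 and is known for restraining differentiation of progenitor cells, went from 52.0, 55.3 and 52.8 CPM to 26.3, 27.4 and 25.6. No knockout library came near a wild-type library, and the log2 fold change was -1.02 ± 0.05 (adjusted p = 4.07e-21). SNHG3, the host of SNORA73A and SNORA73B, which take part in processing the 18S ribosomal RNA precursor, went from 60.2, 63.4 and 60.3 to 31.8, 33.1 and 33.3 CPM. That was a log2 fold change of -0.90 ± 0.05 (adjusted p = 5.33e-19), again with no overlap. SNHG20 (-0.84), SNHG10 (-0.91) and SNHG15 (-0.80) fell by similar amounts.

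Among the most abundant hosts the decrease was smaller. GAS5 stood at 183, 183 and 178 CPM in wild type and at 139, 132 and 130.3 in knockout, with all 3 knockout libraries below all 3 wild-type libraries. The log2 fold change was -0.44 ± 0.03 (adjusted p = 2.62e-14). SNHG32, the host of SNORD48 and SNORD52, fell by 0.35 on the log2 scale, SNHG7 by 0.28, SNHG5 by 0.19, TAF1D by 0.19 and SNHG29 by 0.11. Scaling by library size alone ended the calls of SNHG29 and SNHG11. SNHG1, SNHG16 and SNHG17 stood apart from this list. SNHG1 was at 127, 119.6 and 114 CPM in wild type and 137, 129 and 121 in knockout, where the groups overlap, and its log2 fold change was 0.10 ± 0.05 (adjusted p = 0.0669). SNHG17, the host of the SNORA71 family, differed by 0.09 ± 0.06 (adjusted p = 0.18) and SNHG16 by 0.10 ± 0.04 (adjusted p = 0.0514). All 3 were called higher with library size alone. The 3 members below 0 that were not called (SNHG14, SNHG28 and SNHG31) had under 1 CPM.

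The decrease was seen in hosts of both snoRNA classes. Of 11 members tested that hold only box C/D snoRNA genes in GENCODE 29, 8 were lower in knockout. Of 11 that hold only H/ACA genes, 9 were lower, where 32.1% of all genes tested were lower. GAS5 is in neither set, since that annotation places no snoRNA gene in it. The box C/D set includes SNHG14, whose reads are mostly not from its strand, as given below. It was also seen with either kind of start. Among members with at least 1 CPM the median change was -0.35 for the 7 with a C and pyrimidine start, such as SNHG5 and SNHG4 above, and -0.43 for the 16 with another start. The 16 include GAS5 and SNHG3, whose annotated starts are uncertain.

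**Figure D1:**
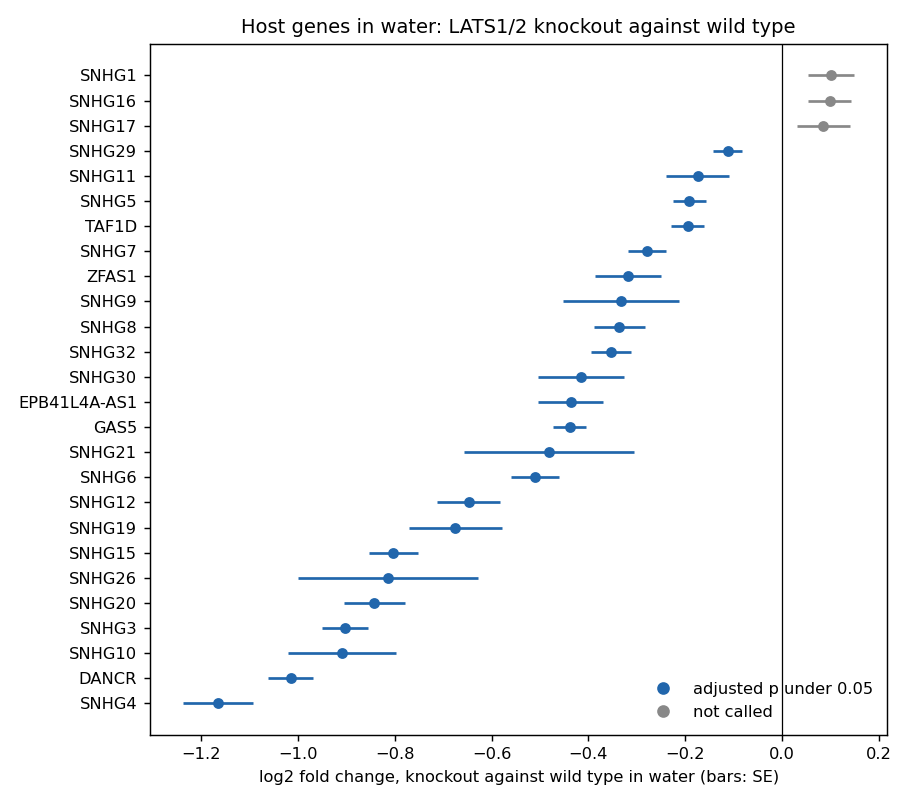
Log2 fold change of knockout against wild type in water (horizontal axis) for the 26 members with a mean of at least 1 CPM, one member per line, ordered by the change, with bars of the standard error (n = 3 against 3 libraries). Blue points were called at an adjusted p under 0.05 and grey points were not; the 3 members above 0 (SNHG1, SNHG16 and SNHG17) were not called.

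In wild-type cells zinc and cadmium each raised some hosts and lowered others. After zinc, 12 of 30 members were higher and 9 lower, where 29.4% of all genes tested were higher and 32.0% lower. After cadmium, 15 were higher and 9 lower, where 30.0% were higher and 31.7% lower. The median member changed by 0.00 in zinc and 0.18 in cadmium, against -0.01 for all genes in both. With library size alone as the scaling, which moved the median of all genes to -0.13 in cadmium, 11 members were higher and 11 lower after cadmium, and SNHG5, SNHG6, SNHG7 and SNHG29 lost their calls. In either direction 21 members were called after zinc and 24 after cadmium, where 61.3% and 61.7% of all genes were.

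SNHG17 and SNHG15 rose furthest among members with at least 1 CPM. SNHG17 stood at 61.4, 68.8 and 62.5 CPM in water, 144, 140.1 and 173 in zinc and 187, 176 and 186 in cadmium. Every metal library lay above every water library, and zinc replicate 3 was the highest of its group. The log2 fold change was 1.25 ± 0.05 (adjusted p = 3.40e-22) in zinc and 1.51 ± 0.05 (adjusted p = 6.06e-25) in cadmium. SNHG15, the host of SNORA9, whose RNA is known to be short-lived and to increase under several stresses, went from 104, 98.6 and 101 CPM in water to 212, 205 and 246 in zinc. In cadmium it reached 278, 260.3 and 271 CPM. Its groups did not overlap either, with log2 fold changes of 1.12 ± 0.05 (adjusted p = 1.23e-22) and 1.42 ± 0.05 (adjusted p = 6.65e-26). Without zinc replicate 3 the zinc values were 1.14 for SNHG17 and 1.04 for SNHG15.

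SNHG1 responded far more to cadmium than to zinc. It stood at 143, 138 and 161 CPM in zinc and at 320.0, 311 and 292 in cadmium, against the 114 to 127 CPM in water given above. The log2 fold change was 0.30 ± 0.05 (adjusted p = 1.27e-06) in zinc and 1.36 ± 0.05 (adjusted p = 4.59e-25) in cadmium, and the direct comparison of cadmium with zinc gave 1.06 ± 0.05 (adjusted p = 2.20e-21). Without zinc replicate 3 the zinc value of SNHG1 was 0.23. EPB41L4A-AS1, the host of SNORA13, showed the same order and was chosen after its values were seen. It went from 21.4, 19.1 and 20.3 CPM in water to 27.5, 30.0 and 32.3 in zinc and 43.3, 42.6 and 45.3 in cadmium. Its log2 fold change was 0.56 in zinc (0.50 without zinc replicate 3) and 1.11 in cadmium, both called.

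GAS5 and ZFAS1 rose after cadmium and were not called after zinc. GAS5 had 177, 176 and 188 CPM in zinc, which overlaps the water libraries, and 262, 244 and 242 in cadmium, which does not. The cadmium change was 0.46 ± 0.03 (adjusted p = 3.41e-15), and cadmium exceeded zinc by 0.47 ± 0.03 (adjusted p = 4.42e-15). ZFAS1, the host of the SNORD12 family that lies antisense to the start of ZNFX1, changed by 0.62 in cadmium, and was chosen after its values were seen. SNHG20, a host of the small Cajal body RNA SCARNA16, rose by 0.40 in zinc and 0.43 in cadmium. SNHG5 (0.14 and 0.19) and SNHG7 (0.19 and 0.16) rose by less, and SNHG29 rose by 0.17 in cadmium and was not called in zinc (0.04).

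**Figure D2:**
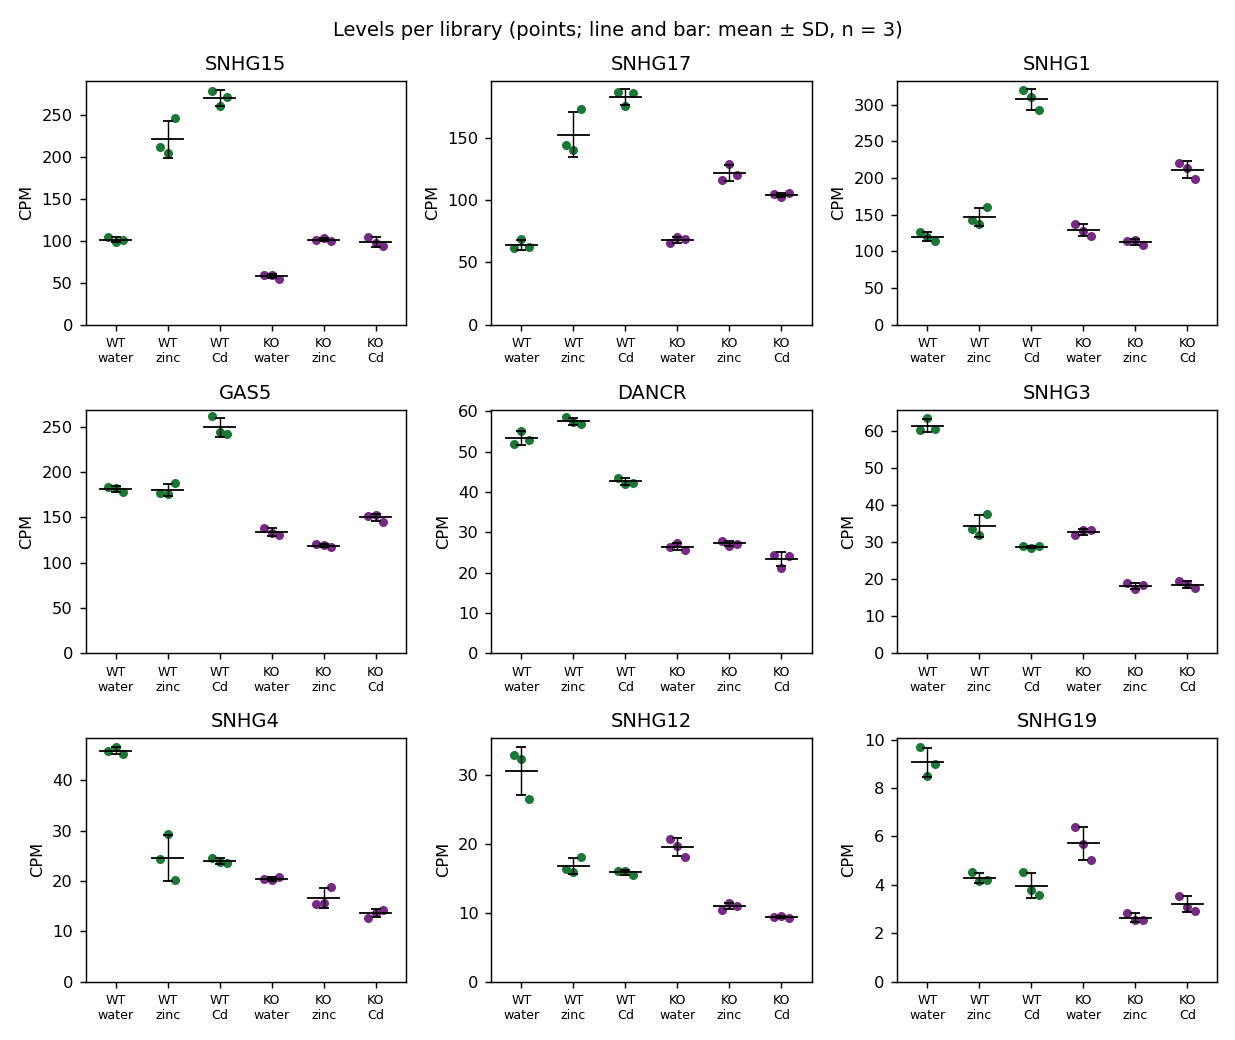
CPM per library (vertical axis, linear, from 0) of 9 members in the 6 groups, with the group mean and SD (n = 3). SNHG15, SNHG17 and SNHG1 lie above water in wild-type cadmium, SNHG3, SNHG4, SNHG12 and SNHG19 lie below it, and the knockout water libraries of DANCR have a mean of 26.4 CPM against 53.4 in wild type.

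Another set of hosts fell under both metals. SNHG3 went from the 60.2 to 63.4 CPM in water given above to 33.4, 31.8 and 37.5 in zinc and 28.9, 28.2 and 28.9 in cadmium. The cadmium libraries were the lowest, and the log2 fold changes were -0.84 ± 0.05 (adjusted p = 5.66e-18) and -1.10 ± 0.05 (adjusted p = 2.64e-21). SNHG12, which carries SNORD99, SNORA61, SNORA44 and SNORA16A close to SNHG3 on chromosome 1, had 32.9, 32.3 and 26.5 CPM in water, 16.4, 15.8 and 18.1 in zinc and 16.1, 16.0 and 15.5 in cadmium. It fell by 0.86 and 0.94 on the log2 scale. SNHG19, a short transcript that holds SNORD60, went from 9.70, 8.48 and 8.98 CPM to 4.54, 4.16 and 4.19 in zinc and 4.54, 3.79 and 3.57 in cadmium. That was the lowest value among members with at least 1 CPM under each metal, -1.07 ± 0.10 (adjusted p = 1.28e-11) and -1.19 ± 0.10 (adjusted p = 1.09e-12).

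SNHG4 had 24.3, 29.4 and 20.3 CPM in wild-type zinc and 24.6, 23.8 and 23.7 in cadmium, all below water, and fell by 0.90 and 0.94. Its zinc libraries were spread more widely than those of water or cadmium. Without replicate 3 the zinc value was -0.78. DANCR was called in opposite directions by the 2 metals. It had 58.6, 57.3 and 57.0 CPM in zinc, a change of 0.11 ± 0.04 (adjusted p = 0.0249) that library size alone brought to 0.05 and out of the calls, and 43.6, 41.9 and 42.3 in cadmium, a change of -0.32 ± 0.04 (adjusted p = 4.30e-08). The comparison of cadmium with zinc gave -0.43 ± 0.04 (adjusted p = 6.56e-11). The small zinc call was also lost without wild-type water replicate 1 or 3 or zinc replicate 1. TAF1D fell in zinc and was not called in cadmium, with 135, 128 and 131 CPM in water, 101, 98.6 and 104 in zinc and 132, 134 and 141 in cadmium. SNHG10 and SNHG11 fell in cadmium, by 0.82 and 0.46, and the zinc call of SNHG10 (-0.26) was lost without replicate 1 or 2 of water or replicate 1 or 3 of zinc.

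The members with a C and pyrimidine start included hosts that rose and hosts that fell. In wild-type zinc, 1 of the 7 with at least 1 CPM rose (SNHG5) and 5 fell (TAF1D, SNHG32, SNHG4, SNHG12 and SNHG19), while ZFAS1 was not called. Of the 16 with another start, 7 rose, SNHG17 among them, and 3 fell (SNHG3, SNHG16 and SNHG10). GAS5 and SNHG3, whose annotated starts are uncertain, are counted among the 16. Over all genes tested, 29.4% were higher and 32.0% lower. The median change was -0.37 for the 7 and 0.03 for the 16. In cadmium 3 of the 7 rose and 3 fell, and 9 of the 16 rose and 5 fell, with medians of 0.05 and 0.16. There 30.0% of all genes were higher and 31.7% lower. Among the TOP mRNAs of translation, most of which have such a start, 12 were higher and 0 lower in wild-type zinc (0 also unadjusted and by DESeq2). In cadmium 11 of them were higher and 1 lower. These counts and medians are a description, and the difference between the kinds of start was not tested.

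In knockout cells 6 of 30 members rose and 13 fell after zinc, where 28.2% of all genes were higher and 27.7% lower. After cadmium 12 rose and 8 fell, where 47.0% of all genes were called, 23.2% higher and 23.8% lower. Scaling by library size alone left 6 that rose and 8 that fell. Many of the hosts that rose in wild type rose less in knockout, but not all. Of the 15 members that rose after cadmium in wild type, 9 rose in knockout, 6 were not called there and none fell. Their median change was 0.43 in wild type and 0.17 in knockout, and the difference was called lower in knockout for 10 and higher for 1, SNHG7. Of the 12 that rose after zinc in wild type, 6 rose in knockout, 3 fell and 3 were not called, with medians of 0.33 and 0.17 and a called lower difference for 6. The members were sorted here by their wild-type change, so these medians are a description.

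The difference of the 2 responses was tested as such, and 11 members had a lower cadmium response in knockout and 4 a higher one, where 14.1% of all genes were lower and 14.0% higher. For zinc 10 were lower and 1 higher, where 10.5% of all genes were lower and 14.1% higher. SNHG17 showed the widest gap. In knockout it went from 65.6, 70.1 and 68.7 CPM in water to 116, 129 and 119.8 in zinc and 105, 102 and 106 in cadmium. All metal libraries again lay above water, but the cadmium change of 0.61 was below that of wild type by 0.89 ± 0.07 (adjusted p = 4.47e-12). Both genotypes had like levels of SNHG17 in water, so the levels under cadmium differed too, with 183 ± 6.27 CPM (SD, n = 3) in wild type and 104 ± 1.66 in knockout.

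SNHG15 started lower in knockout and also rose less. It stood at 59.8, 59.6 and 55.1 CPM in water, 101, 104 and 99.8 in zinc and 105, 97.5 and 93.3 in cadmium. The knockout metal libraries, at 93.3 to 105 CPM, lay near the wild-type water libraries at 98.6 to 104 CPM. The difference of its responses was -0.32 ± 0.07 (adjusted p = 0.000436) for zinc and -0.65 ± 0.07 (adjusted p = 1.13e-09) for cadmium. SNHG1 moved in opposite directions under zinc. It rose in wild type and fell in knockout, where it had 115, 116 and 109 CPM in zinc and 221, 214 and 199 in cadmium. The zinc difference was -0.48 ± 0.07 (adjusted p = 7.52e-07). Without wild-type zinc replicate 3 the zinc differences were -0.31 for SNHG17, -0.23 for SNHG15 and -0.41 for SNHG1, all still called, while TAF1D, SNHG16 and ZFAS1 lost theirs and left 7 members lower.

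SNHG20 also changed direction under zinc. It had 22.9, 22.6 and 22.0 CPM in wild-type water and 30.7, 29.9 and 28.5 in zinc, but 11.6, 13.1 and 12.8 in knockout water and 9.64, 10.1 and 11.1 in zinc. The difference of -0.68 ± 0.09 (adjusted p = 2.66e-07) was the most negative among members for zinc. For cadmium it was -0.25 ± 0.09 (adjusted p = 0.0299), a call lost without any of 6 libraries, the lowest value being -0.19 without knockout cadmium replicate 1. GAS5 had 121, 119 and 117 CPM in knockout zinc and 152, 153 and 145 in cadmium. Its differences were -0.16 for zinc and -0.29 for cadmium, both called, and its rise in knockout cadmium (0.17) was not called with library size alone.

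Most hosts that fell in wild type also fell in knockout. For SNHG12 the responses were close: -0.86 and -0.83 for zinc, with a difference of 0.03 ± 0.10 (adjusted p = 0.888). For SNHG3 they were -0.84 and -0.85, with a difference of -0.01 ± 0.07 (adjusted p = 0.956). The 95% intervals of these differences ran from -0.17 to 0.23 for SNHG12 and from -0.15 to 0.14 for SNHG3. In cadmium SNHG3 fell less in knockout (-0.82 against -1.10), a difference of 0.28 ± 0.08 (adjusted p = 0.00471). For SNHG4 the zinc responses differed. It went from 20.4, 20.1 and 20.9 CPM in knockout water to 15.5, 15.6 and 18.8 in zinc and 12.7, 13.7 and 14.3 in cadmium, and was the single member whose zinc response was higher in knockout, by 0.60 ± 0.11 (adjusted p = 4.46e-05). Without wild-type zinc replicate 3 the difference of SNHG4 was 0.48, still called. Its knockout water libraries, at 20.1 to 20.9 CPM, lay near the lowest wild-type zinc library.

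SNHG16, the host of SNORD1A, SNORD1B and SNORD1C, rose after cadmium in knockout (0.18) and fell in wild type (-0.16), a difference of 0.34 ± 0.06 (adjusted p = 5.19e-05). The wild-type call depends on how reads were counted, as given below, and the knockout call is lost with library size alone. SNHG7, which carries SNORA17, responded more to cadmium in knockout, with 0.39 against 0.16. Its difference was 0.23 ± 0.06 (adjusted p = 0.00187).

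**Figure D3:**
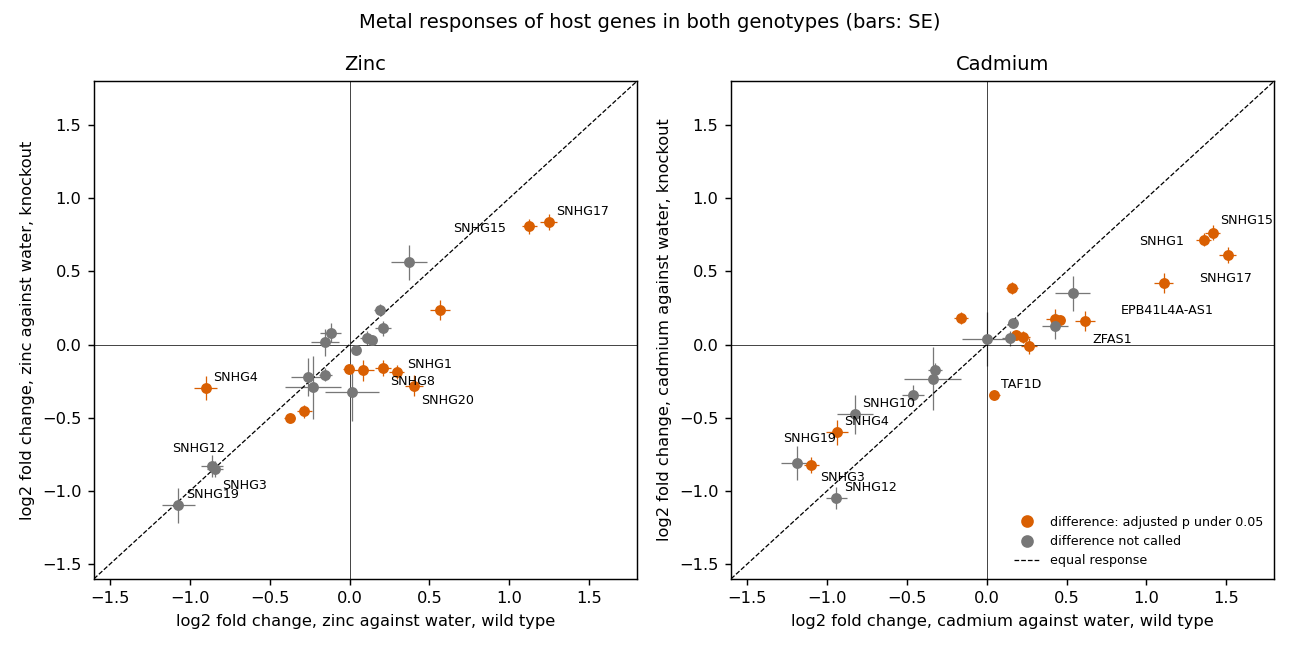
Log2 fold change against water in wild type (horizontal axis) and in knockout (vertical axis) after zinc (left) and cadmium (right), one point per member with a mean of at least 1 CPM, and the line of equal response. Orange points had a called difference between genotypes; in cadmium SNHG17, SNHG15, SNHG1 and EPB41L4A-AS1 lie furthest below the line.

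Set directly against each other, cadmium left more hosts above zinc than below it. In wild type 11 members were higher in cadmium and 6 lower, where 52.3% of all genes were called, 27.3% higher and 25.0% lower. In knockout 12 were higher and 6 lower, where 48.2% were called, 23.9% higher and 24.3% lower. SNHG1 led in both genotypes, by 1.06 in wild type and 0.90 in knockout. GAS5 (0.47 and 0.34), SNHG32 (0.38 and 0.26) and TAF1D (0.42 and 0.16) were higher in cadmium in both. DANCR and SNHG11 were lower in cadmium in both. SNHG17 was higher in cadmium in wild type (0.26) and lower in knockout (-0.22). Both metals were compared with the same water libraries above, and at different concentrations, so these are differences between the 2 treatments as given.

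Several members share exon bases with other genes, and for these the count used here, of reads on both strands, can be below the count of sense reads alone. For SNHG16 the both-strand count was 37.4% of the sense-strand count, and it shares 1639 exon bases with AC015802.6. With sense-strand counts, its cadmium change in wild type was 0.01 (adjusted p = 0.833), and its knockout value in water was called higher at 0.12 (adjusted p = 0.000341), while its cadmium difference between genotypes was 0.26. EPB41L4A-AS1 shares 1659 exon bases with EPB41L4A on the other strand, and with sense counts it rose by 0.53 in zinc and 1.10 in cadmium, close to the values above. SNHG7 had 43886 antisense reads opposite FAM69B beside 65614 sense reads, and the sense counts gave 0.24 in wild-type zinc and 0.18 in cadmium. The both-strand counts of SNHG29, SNHG6 and SNHG10 were 72.8%, 75.8% and 72.4% of the sense counts. SNHG14, the long host of the SNORD115 and SNORD116 clusters in the Prader-Willi region, had 118 reads on both strands but 9 on its own strand and 4434 antisense, opposite UBE3A. Its called rise in zinc, 2.37 in wild type and 2.28 in knockout, thus rests on reads not from its strand.

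Overlapping and facing neighbours were read in the same fit. SNHG4 shares 626 exon bases with a MATR3 transcript on its strand. That row changed by -0.69 in zinc and -0.92 in cadmium in wild type and by -1.30 between genotypes in water, close to SNHG4, and reads of the 2 cannot be told apart in the shared exons. SNHG3 shares 242 exon bases with RCC1 on its strand, and RCC1 changed less, by -0.29, -0.05 and -0.28. SNHG20 shares 460 with SEC14L1, which moved the other way between genotypes (0.65). SNHG1 starts 188 bases from SLC3A2, the heavy chain of amino acid transporters, on the opposite strand. SLC3A2 rose by 0.61 in zinc and 0.50 in cadmium in wild type, but fell by 1.49 in knockout water, where SNHG1 was not called.

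The snoRNA genes inside the members are rows of their own, and 11 of them passed the filter, all in introns. Every snoRNA gene wholly inside an annotated host exon had 0 reads. Whether that reflects how reads in shared bases were counted was not tested, so it does not show that these snoRNAs are absent. The 11 had few reads, and the libraries were selected for polyadenylated RNA, so a read there can come from unspliced host RNA as well as from a snoRNA. In wild-type zinc none of the 11 was higher and 6 were lower, where 61.3% of all genes were called and 32.0% were lower. In cadmium none was higher and 6 were lower, where 61.7% of all genes were called and 31.7% were lower. For the counts of 0, edgeR had 0 at an unadjusted p under 0.05 and DESeq2 called 0. DESeq2 called 6 lower in zinc and 4 in cadmium. Of the 6 that fell in zinc, 3 had a host that rose, 2 a host that fell and 1 a host that was not called. Among those 3, the host call of SNORA26 (DANCR, given above) and the call of SNORA71A (given below) were each lost in some alternatives. Of the 6 that fell in cadmium, 2 had a host that rose (SNORA71C and SNORA13) and 4 a host that fell. SNORA13, in EPB41L4A-AS1, had 12, 14 and 12 reads in wild-type water, 7, 5 and 8 in zinc and 5, 9 and 6 in cadmium. With sense-strand counts it was called lower in wild-type zinc as well, at -1.38. SNORD99, in SNHG12, had 30, 22 and 24 reads in wild-type water and 4, 1 and 3 in cadmium, where SNHG12 fell too.

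Sequences are shown for snoRNA genes whose reads fell in wild-type zinc, whether the host rose (SNORA71C, SNORA71A and SNORA26), fell (SNORA73B and SNORD104) or was not called (SNORD12B). The annotated regions are given 5′ to 3′ on their own strand (GRCh38, GENCODE 29). Capitals mark the ACA box of H/ACA snoRNAs, and the C box (TGATGA) and D box (CTGA) of box C/D snoRNAs.
SNORA71C: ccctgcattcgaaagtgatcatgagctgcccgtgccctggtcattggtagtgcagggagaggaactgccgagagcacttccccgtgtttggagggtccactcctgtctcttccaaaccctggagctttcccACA
SNORA71A: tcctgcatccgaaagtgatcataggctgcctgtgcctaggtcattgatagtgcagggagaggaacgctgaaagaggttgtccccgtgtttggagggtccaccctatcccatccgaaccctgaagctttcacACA
SNORA26: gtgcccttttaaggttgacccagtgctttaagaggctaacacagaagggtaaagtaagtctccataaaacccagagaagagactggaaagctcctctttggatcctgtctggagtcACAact
SNORA73B: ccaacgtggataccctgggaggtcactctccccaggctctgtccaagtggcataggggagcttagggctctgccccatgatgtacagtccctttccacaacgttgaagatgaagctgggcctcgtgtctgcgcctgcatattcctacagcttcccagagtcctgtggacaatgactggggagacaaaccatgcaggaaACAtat
SNORD104: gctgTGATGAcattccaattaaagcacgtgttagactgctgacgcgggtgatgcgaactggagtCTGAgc
SNORD12B: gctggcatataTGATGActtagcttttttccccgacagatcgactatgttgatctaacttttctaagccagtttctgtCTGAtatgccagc
SNORA71C (chr20:38429670-38429803, minus strand) and SNORA71A (chr20:38427309-38427442, minus strand) lie in introns of SNHG17 and are identical at 83.1% of aligned positions, so reads that fit several copies make their counts uncertain. SNORA26 (chr4:52713249-52713370, plus strand) lies in DANCR, SNORA73B (chr1:28508559-28508762, plus strand) in SNHG3, SNORD104 (chr17:64146083-64146152, plus strand) in SNHG25 and SNORD12B (chr20:49280319-49280409, plus strand) in ZFAS1.

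SNORA71C had 27, 39 and 53 reads in the wild-type water libraries, 25, 22 and 10 in zinc and 30, 18 and 30 in cadmium, while SNHG17 itself more than doubled in CPM. The log2 fold change was -1.02 ± 0.27 (adjusted p = 0.00119) in zinc and -0.63 ± 0.25 (adjusted p = 0.0282) in cadmium, and the cadmium call was lost with DESeq2 or without water replicate 2 or 3 or cadmium replicate 2. SNORA71A fell in zinc by 0.76 on the log2 scale, a call that was lost without zinc replicate 3 (-0.43) or water replicate 1 (-0.53). The other copy tested, SNORA71B, was not called in either metal (-0.25 and -0.26). In knockout SNORA71C had 43, 36 and 56 reads in water and 35, 38 and 54 in zinc, and the zinc difference between genotypes was 1.01 ± 0.35 (adjusted p = 0.0303). That call was lost without wild-type zinc replicate 3 (0.69), and also without wild-type water replicate 3, knockout water replicate 2 or knockout zinc replicate 3.

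SNORD104 fell strongly under both metals. It had 78, 86 and 90 reads in wild-type water, 14, 22 and 21 in zinc and 14, 13 and 4 in cadmium. The groups were far apart, with log2 fold changes of -2.12 ± 0.23 (adjusted p = 1.95e-10) and -3.05 ± 0.26 (adjusted p = 4.05e-13). Its host SNHG25 fell as well, by 0.84 and 1.73, at under 1 CPM on average. SNORA73B fell with its host SNHG3, from 24, 30 and 38 reads to 14, 12 and 8 in zinc and 18, 13 and 11 in cadmium. SNORD12B had 13, 12 and 15 reads in water, 5, 1 and 2 in zinc and 12, 9 and 13 in cadmium, and fell in zinc, where ZFAS1 was not called. Its log2 fold change there was -2.24 ± 0.49 (adjusted p = 0.000156), and in cadmium it was not called.

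SNORA26 had 9, 19 and 33 reads in wild-type water and 5, 4 and 8 in zinc, a log2 fold change of -1.77 ± 0.42 (adjusted p = 0.000338), while DANCR was called slightly higher. Its water libraries spread widely, and without replicate 3 the cadmium call (-1.29) was lost, at -0.88. In knockout zinc 4 of the 11 features were lower and none higher (0 also unadjusted and by DESeq2), where 27.7% of all genes were lower. Of these 4, 3 had a host that fell and 1 a host that rose. In knockout cadmium 3 were lower and 1, SNORA71B, was higher (0.63), where 23.8% of all genes were lower and 23.2% higher. Of the 3 that were lower, 2 had a host that fell and 1 a host that was not called. Between genotypes in water 3 were lower (SNORA26, SNORD104 and SNORD12B) and none higher (0 also unadjusted and by DESeq2), where 32.1% of all genes were lower, and DESeq2 called 1 lower. All 3 had a host that was lower too. The genotype call of SNORA26 was lost without that same water library (-0.63), and that of SNORD12B without any of 5 libraries.

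**Figure D4:**
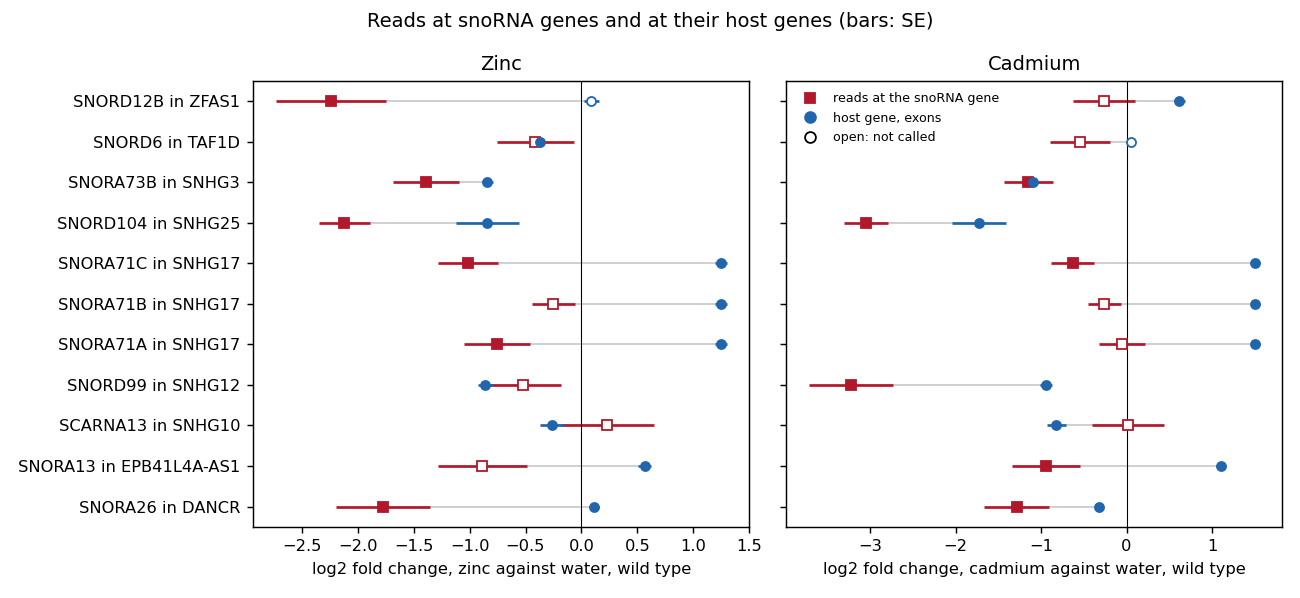
Log2 fold change against water in wild-type zinc (left) and cadmium (right) (horizontal axis) of the 11 snoRNA features tested (red squares) and of their hosts (blue circles), 1 feature per line, with bars of the standard error; open symbols were not called. SNORA71A and SNORA71C lie below 0 in zinc at a host value of 1.25, and SNORD104 lies at -2.12 in zinc and -3.05 in cadmium.

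Other snoRNA hosts gave a frame for these values. Of 28 ribosomal protein genes tested that hold a snoRNA, 23 were lower and 2 higher in knockout in water, where 32.1% of all genes were lower and 30.8% higher, with a median of -0.24. Of 16 other TOP mRNAs of translation tested, 13 were lower and 3 higher, with a median of -0.32. With library size alone 22 and 12 were lower, with medians of -0.19 and -0.27. EIF4A2, an initiation factor helicase and itself a snoRNA host, fell by 0.61 and TPT1 by 0.61. Of 214 other protein-coding hosts, 105 were lower and 65 higher, with a median of -0.11, and of 11 other non-coding hosts 3 were lower and 2 higher. Under the metals the ribosomal protein hosts moved little and mostly upward (19 higher and 1 lower in wild-type zinc, 21 and 2 in cadmium), with medians of 0.10 and 0.12. Library size alone reduced these to 11 higher and 4 lower in zinc and turned cadmium to 5 higher and 6 lower.

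Genes that assemble, trim and package snoRNAs were read against the shares of all genes, of which 29.4% rose and 32.0% fell in wild-type zinc and 30.0% and 31.7% in cadmium. Of 13 assembly factors of snoRNA-protein particles, 10 fell in wild-type zinc and none rose (0 also at an unadjusted p under 0.05 and by DESeq2). COIL, the scaffold of Cajal bodies, fell by 0.73 and NUFIP1 by 0.53. In cadmium 4 rose and 5 fell, and NAF1, an H/ACA assembly factor, rose by 0.59. Of 19 genes of intron debranching and snoRNA trimming, 11 fell in wild-type zinc and 4 rose, while in cadmium 5 fell and 8 rose. DBR1, the enzyme that opens intron lariats, fell by 2.61 in zinc and 1.06 in cadmium in wild type, and by 2.01 and 0.89 in knockout. EXOSC6, a subunit of the RNA exosome, rose by 0.62 and 1.28 in wild type.

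Of the 8 core proteins of the particles, 2 rose and 5 fell in wild-type zinc, and 4 rose and 1 fell in cadmium. NOP58, of the box C/D particle, rose by 0.30 in wild-type zinc and 0.84 in cadmium, and the cadmium response was lower in knockout by 0.53. In knockout water 4 of the 8 core proteins fell and 1 rose, among them SNU13 (-0.60), NHP2 (-0.38) and FBL (-0.34). That share called was near that of all genes there (62.9%), of which 32.1% were lower and 30.8% higher. Of 17 nonsense-mediated decay factors, 8 fell and 4 rose in wild-type zinc, a share called near that of all genes (61.3%), with EIF4A3, of the exon junction complex, down by 0.92. In cadmium 7 fell and 5 rose, with SMG8, a regulator of the SMG1 kinase, down by 1.63. Of 8 genes of SL1 and RNA polymerase I initiation, the partners of TAF1D, 4 rose and 3 fell in wild-type zinc, where POLR1B fell by 1.17 and UBTF by 0.80. In cadmium 4 rose and 4 fell, and TAF1A, another SL1 subunit, rose by 0.82.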

How the data were processed

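Messenger RNA libraries were made with a stranded kit from 18 samples in 6 groups. The authors deposited read counts per gene as whole numbers, for both strands together, for sense reads and for antisense reads. STAR, hg38 and GRCh38.p13 are named per the submitters' processing notes; their versions, the annotation release and the counting tool were not given in the sources used here. Gene IDs were matched to GENCODE 29 (58216 of 58336 rows), and start windows to RefSeq promoters (GRCh38.p14). The both-strand counts, 25478614 to 37148046 per library, were tested with edgeR 4.0.16 in R 4.3.3 (filterByExpr with a minimum count of 10, TMM scaling, quasi-likelihood test, 1 model of 6 groups and 18 libraries, Benjamini-Hochberg over 19393 genes, called at an adjusted p under 0.05). Errors of log2 fold changes are standard errors, and CPM are edgeR's cpm values on the TMM-adjusted library size, and a value per kilobase divides by the union of exon bases. Shared exons, near-identical copies and the counting of strands limit single members, as given beside them.

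The members and lists were chosen with earlier results of these data known. Values per library are given for the 12 members with the highest mean CPM and, in each of the 9 comparisons, the called member with the most positive and the most negative change among those with at least 1 CPM. Up to 3 genes of a list are named by the size of their change, and SNU13, NHP2 and FBL are such a set. EPB41L4A-AS1, ZFAS1, SNHG6, SNHG14, SNHG25 and the snoRNA features named singly were chosen after their values were seen. On simulated counts for zinc in wild type the test recovered 84% of 50 genes changed by 1.3-fold, 86% at 1.5-fold and 100% at 2-fold. For the difference of the zinc response between genotypes it recovered fewer, 64% at 1.3-fold, 78% at 1.5-fold and 92% at 2-fold. The changed genes were drawn from those with a mean of at least 1 CPM, so these shares do not cover members or snoRNA features below that level. Alternatives were library size alone, RLE scaling, no filter, at least 5 CPM in 3 libraries, sense-strand counts, the replicate block, only the groups compared, DESeq2 1.42.0 and each library left out. Sequences were read from the GENCODE transcripts and the RefSeq table.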

Additional observations from a re-analysis of the deposited data

Results flagged for a closer look

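The response to a metal differed between genotypes, by the test of the difference itself (edgeR quasi-likelihood test, adjusted p under 0.05), for 11 members under zinc and 15 under cadmium. Values are the knockout response minus the wild-type response on the log2 scale.

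Under zinc the response was lower in knockout for SNHG20 (-0.68), SNHG1 (-0.48), SNHG17 (-0.41), SNHG8 (-0.37), EPB41L4A-AS1 (-0.33), SNHG15 (-0.32), ZFAS1 (-0.26), SNHG16 (-0.17), GAS5 (-0.16) and TAF1D (-0.13). It was higher for SNHG4 (0.60). The calls of ZFAS1, SNHG16 and TAF1D were each lost without several of the single libraries, wild-type zinc replicate 3 among them. Without that replicate SNHG4 was at 0.48, SNHG8 at -0.32 and EPB41L4A-AS1 at -0.27, all still called.

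Under cadmium the response was lower in knockout for SNHG17 (-0.89), EPB41L4A-AS1 (-0.69), SNHG15 (-0.65), SNHG1 (-0.64), ZFAS1 (-0.45), TAF1D (-0.39), GAS5 (-0.29), SNHG8 (-0.27), SNHG20 (-0.25), SNHG32 (-0.18) and SNHG5 (-0.12). It was higher for SNHG16 (0.34), SNHG4 (0.34), SNHG3 (0.28) and SNHG7 (0.23). The calls of SNHG5, SNHG20 and SNHG32 were lost without any of several single libraries, and that of SNHG4 without knockout cadmium replicate 3 (0.30).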

How the results depend on the processing

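In 8 alternatives and 18 fits that each left out a library, no called change of a member turned direction except 1: with sense-strand counts the cadmium change of SNHG16 in wild type was 0.0080. The number of members higher in knockout in water, 0 in the main test, was 3 with library size alone, 2 with RLE scaling, 1 with no filter, 2 at 5 CPM in 3 libraries, 1 with sense-strand counts, 3 with only the groups compared and 1 with DESeq2. With library size alone 6 members rose in knockout cadmium in place of 12. The other counts of members stayed within 1.5 times under these alternatives. The snoRNA alternatives, apart from sense-strand counts, were chosen after seeing the data. DESeq2 called 1 snoRNA feature lower in knockout water and 0 with a higher zinc response in knockout, and no snoRNA feature passed 5 CPM in 3 libraries. The cause was not tested.

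Leaving out each library in turn gave 0 to 1 members higher and 21 to 25 lower in knockout water. Members with a zinc response higher in knockout numbered 1 to 2 and lower 7 to 9, and for cadmium 3 to 6 and 8 to 12. After zinc in wild type 11 to 13 rose and 7 to 10 fell, and after cadmium 14 to 17 and 9 to 10. In knockout 6 to 7 rose and 11 to 13 fell after zinc, and 10 to 13 and 7 to 9 after cadmium. Cadmium lay above zinc for 10 to 12 and below for 5 to 6 members in wild type, and for 10 to 12 and 4 to 7 in knockout. Of the snoRNA features, 5 to 7 fell in wild-type zinc, 4 to 6 in cadmium, 3 to 4 in knockout zinc, 2 to 3 in knockout cadmium and 1 to 3 between genotypes in water. From 0 to 2 had a higher zinc response in knockout and 1 to 3 a higher cadmium response. Over single results and libraries left out, 5111 values kept their side of the threshold, 138 lost a call and 25 gained one.

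Whether replicate numbers pair the libraries was judged by all correlations of deviations being above 0.1, which was not met: 6, 2 and 10 of 15 pairs were above it for numbers 1, 2 and 3. Yet 17 of 18 libraries correlated best with their own number, a hint of shared structure in the data that the design does not state. With the replicate number as a block 2 members were higher in knockout water, where the test without it had 0, and 25 lower in place of 24, and 2 snoRNA features had a higher zinc response in knockout. Low reads limit the snoRNA features most, several of which had under 20 per library.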
